A study of Homo sapiens with 12 samples.

Results

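The comparison held 6 arrays out of 12 in the series, 3 of the ECC1 MTDH KO line and 3 of the parental ECC1 line, all without estradiol. ECC1 is a human endometrial cancer cell line, and MTDH (metadherin) is a protein of intracellular membranes and of the nucleus that is raised in many carcinomas. The 6 arrays were chosen by their labels alone, as the untreated side of a design that crossed the 2 lines with estradiol. Both lines were grown in RPMI1640 with 10% fetal bovine serum and were moved to medium with 5% charcoal-stripped serum, which is poor in steroids, 24 h before estradiol would be added. The other 6 arrays held cells of the same 2 lines given 10 nM estradiol for 24 h. The labels name 1 knockout line and do not say how it was made or how many clones it came from, so loss of MTDH and other differences of that line cannot be told apart. Nothing in them ties the replicates to separate cultures, so each p-value measures a spread between arrays that may be technical.

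The knockout label was checked first. MTDH read 8.57, 8.53 and 8.59 (log2 intensity) on the 3 knockout arrays, against 11.43, 11.18 and 10.78 on the 3 parental arrays. The groups did not overlap, and the difference was −2.57 ± 0.13 (knockout minus parental, log2; SE, n = 3 each; limma adjusted p = 2.06e-07). The knockout signal still lay at the 83.5 to 83.8 percentile of each array, and the table does not give the part of the transcript that was probed, and what the remaining signal stands for was not tested.

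Endometrial epithelium is a secretory lining that derives from the Müllerian duct. Its cells carry membrane and gel-forming mucins on their apical side, secrete antimicrobial and protease-inhibiting proteins, and are held together by keratins, desmosomes and tight junctions. Proteins of the TGF-beta family act on it from outside: bone morphogenetic proteins (BMPs) signal through SMAD proteins to switch on ID genes and their own inhibitors, while LEFTY proteins block nodal, a relative of BMP. The comparison asked which of these functions differed between the lines when no estradiol was given. The functions were chosen with earlier results of these data known.

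The lines differed at many genes. The 17415 entries whose value exceeded 6.82, the median of all values of the 6 arrays, on at least 3 arrays were tested with limma, with 4 residual degrees of freedom. At an adjusted p under 0.05, which is the meaning of "called" here, 3870 genes were called, or 22.2%. In knockout cells 1166 of them were higher (6.70%) and 2704 were lower (15.5%). For 3798 called genes the 3 knockout values did not overlap the 3 parental values. The calls rest on these same values, so this is no separate support for them. Changes past 2-fold were fewer, 33 higher and 71 lower.

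The excess of lower genes followed the signal level. The tested genes were divided by mean level into 20 bins of at least 870 genes. The median difference was 0.03 (log2) in the dimmest bin and −0.16 in the brightest. In the brightest bin 15 genes were higher and 316 lower in knockout cells. On single arrays, the deviation of the brightest bin minus that of the dimmest was between −0.127 and −0.0732 in the knockout line, against 0.0342 to 0.130 in the parental line. These ranges did not overlap, and the difference of −0.198 gave an exact two-sided permutation p of 0.1, the smallest that 3 arrays against 3 allow. After quantile normalization, which gives all arrays 1 distribution, 3477 genes were called (20%), 1880 higher (10.8%) and 1597 lower (9.17%). Rises then made up 54.1% of the calls, against 30.1% in the deposited values. Both scalings called 2718 genes in the same direction, 1151 higher and 1567 lower, and 0 in opposite directions. Whether bright genes truly fell or the arrays differed in scale was not tested. For that reason counts of called genes in each group below are given as deposited and after quantile normalization, and medians, where printed, also as level-matched values (the difference minus the median of the gene's level bin). Over all tested genes these medians were −0.04 as deposited, 0 level-matched and −0.00235 after quantile normalization. The counts are to be read beside the shares of all tested genes. These were 6.70% higher and 15.5% lower as deposited, and 10.8% higher and 9.17% lower after quantile normalization.

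**Figure D1:**
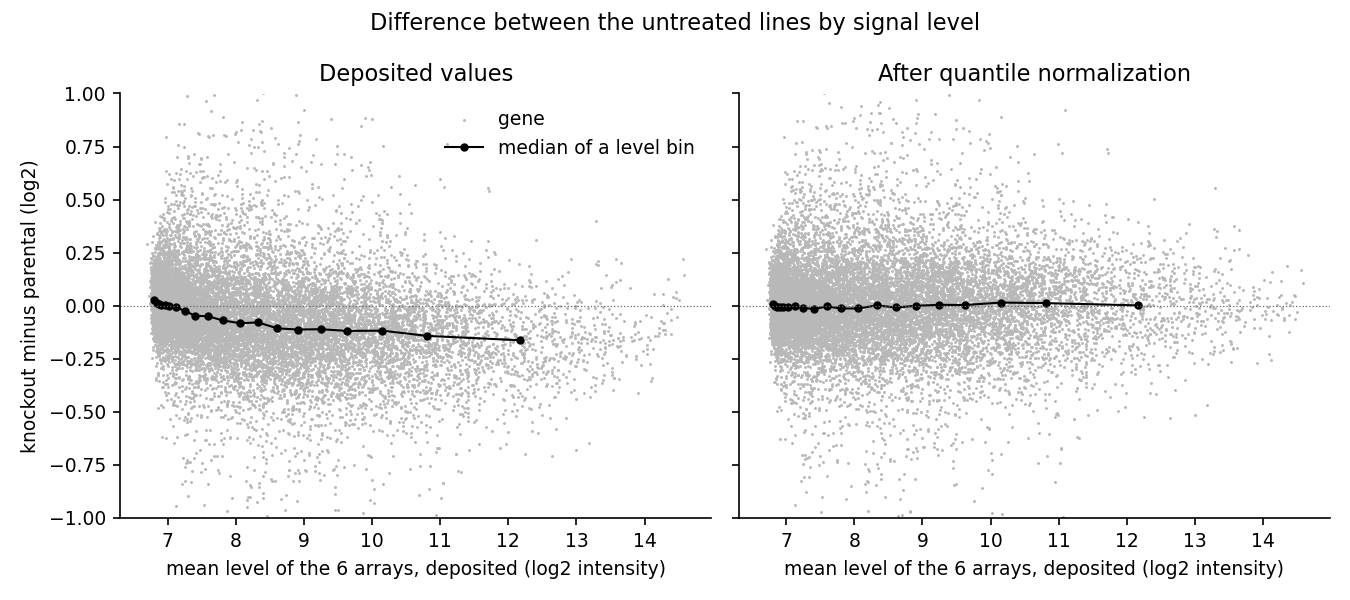
Knockout minus parental difference (log2, vertical axis cut at −1 and 1) against the mean deposited level of the 6 untreated arrays, for each tested gene (grey) with the median of each of 20 level bins (black). The bin medians fall to −0.16 at the bright end in the deposited values and stay near 0 after quantile normalization.

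The largest fall in knockout cells was in a matrix protein. SPON1, which encodes the secreted matrix protein spondin 1, read 6.78, 6.71 and 6.86 in knockout cells, against 12.62, 12.22 and 12.06 in parental cells. The parental values were among the bright signals of the array, and 2 of the 3 knockout values lay below the median of all entries, so a further decrease could not be read there. The difference was −5.52 ± 0.12 (adjusted p = 3.22e-10). MUC16, the membrane mucin that carries the CA125 epitope, read 7.05, 7.14 and 7.25 in knockout cells, against 10.96, 11.02 and 10.85 in parental cells (−3.79 ± 0.07, adjusted p = 1.86e-10). MAL, a lipid-raft protein of apical sorting, read 9.58, 9.45 and 9.37 in knockout cells, against 12.82, 12.74 and 12.59 in parental cells (−3.25 ± 0.08). LEFTY2, a secreted nodal inhibitor known from the endometrium, read 7.90, 7.43 and 7.44 in knockout cells, against 10.85, 10.67 and 10.19 in parental cells (−2.98 ± 0.16). In each of these 4 genes the lines did not overlap.

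The rest of the 12 largest falls were of the same order. TMPRSS2, a transmembrane serine protease, read 7.73 to 8.04 in knockout cells, against 10.42 to 10.94 in parental cells (−2.81 ± 0.12). LCN2, a secreted protein that binds bacterial iron carriers, read 7.58 to 7.65 in knockout cells, against 10.12 to 10.69 in parental cells (−2.81 ± 0.11). SLC34A2, a sodium-phosphate cotransporter of apical membranes, differed by −2.72 ± 0.14. GDPD5, a glycerophosphodiester phosphodiesterase, differed by −2.68 ± 0.07. The collagen VI chain gene COL6A1 was lower by −2.29 ± 0.09 and ECHDC2 by −2.25 ± 0.07. The trypsinogen gene PRSS2 also was lower (−2.25 ± 0.11), but its near-identical relative PRSS3 read −2.18 and the probes may not tell them apart. All 12, MTDH included, kept their direction and call after quantile normalization, where their differences lay between −5.44 and −2.15.

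Among the genes that were higher in knockout cells, the largest change was in a detoxifying enzyme. ALDH3A1, an aldehyde dehydrogenase, read 11.93, 11.89 and 11.91 in knockout cells, against 9.44, 9.37 and 9.40 in parental cells (2.50 ± 0.06, adjusted p = 4.88e-10). SERPINE2, a secreted inhibitor of serine proteases, read 10.41, 10.23 and 10.24 in knockout cells, against 7.79, 7.79 and 7.87 in parental cells (2.48 ± 0.07). ID3, an inhibitor of differentiation that BMP signals induce, read 9.70, 9.57 and 9.72 in knockout cells, against 7.57, 7.46 and 7.47 in parental cells (2.16 ± 0.07). Each of these 3 genes was over 4-fold higher with no overlap, and replicate arrays differed little beside that gap.

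The remaining rises included contractile, receptor and small cytoplasmic proteins. ACTA2, the smooth muscle actin, read 11.75 to 11.89 in knockout cells, against 10.08 to 10.25 in parental cells (1.67 ± 0.07). The receptor tyrosine kinase KIT read 9.64 to 9.65 in knockout cells, against 7.80 to 8.12 in parental cells (1.67 ± 0.08). The surface glycoprotein CD24, whose pseudogene copies may share its probe, was higher by 1.60 ± 0.06. The secreted SRPX was higher by 1.75 ± 0.08 and SPP1, osteopontin, by 1.47 ± 0.07. SMAD6, an intracellular inhibitor of BMP signalling, was higher by 1.52 ± 0.08. BEX1 and TCEAL2, neighbours in a family of small X-linked genes, were higher by 1.52 ± 0.07 and 1.44 ± 0.08, and the actin-binding thymosin TMSB15A by 1.44 ± 0.08. Quantile normalization kept all 12 rises, and the largest difference was then 2.65, in ALDH3A1.

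**Figure D2:**
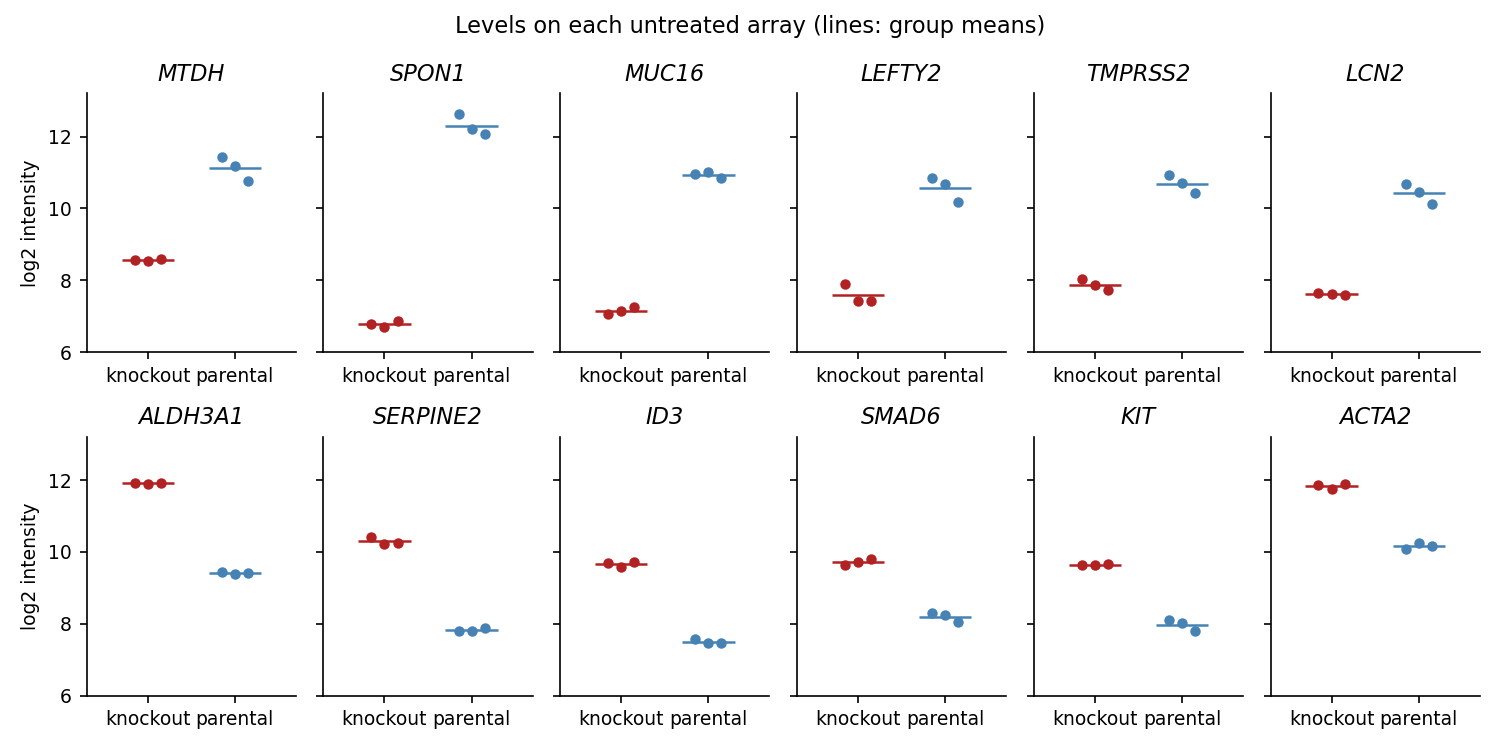
Log2 intensity of 12 genes on each untreated array, with the knockout line on the left and the parental line on the right of each panel (points, single arrays; lines, means of 3). The 6 genes of the upper row are lower in knockout cells and the 6 of the lower row are higher, and in no panel do the lines overlap.

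Secretory and defence genes of epithelia had the lowest medians of the lists compared. Of 26 genes of mucins and secretory cells, 13 passed the filter, and 9 of these were lower and 0 higher in knockout cells, against 15.5% and 6.70% of all tested genes. Their median difference was −0.52 as deposited, −0.47 level-matched and −0.48 after quantile normalization, which called the same 9. MUC5AC, a gel-forming mucin, read 6.97, 6.80 and 6.89 in knockout cells, against 8.85, 8.78 and 8.61 in parental cells (−1.86 ± 0.08). AGR2, a protein disulfide isomerase needed for mucin folding, read 7.25, 7.18 and 7.16 in knockout cells, against 9.11, 8.96 and 8.79 in parental cells (−1.76 ± 0.08). FUT3, which makes Lewis antigens, was lower by −1.21 ± 0.08. In knockout cells these 3 genes and MUC16 lay close to the median of all entries, where further decreases are hard to read. Of 21 genes of epithelial defence, 10 were tested, 6 were lower and 1 higher, with the same counts after quantile normalization and a median of −0.54 as deposited and −0.50 after it. SCGB2A1, a secretoglobin, was lower by −1.93 ± 0.07. WFDC2, the whey acidic protein also called HE4, was lower by −1.41 ± 0.10, and PI3, the elastase inhibitor elafin, by −0.55 ± 0.06.

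Part of the genes of epithelial structure were lower too, by smaller amounts. For comparison, 15.5% of all tested genes were lower and 6.70% higher, and 9.17% and 10.8% after quantile normalization. Among 11 tested keratins of 19, 6 were lower and 0 higher, and 5 of the 6 stayed called after quantile normalization. KRT17 read 8.26, 8.29 and 8.32 in knockout cells, against 9.37, 9.37 and 9.33 in parental cells (−1.07 ± 0.06). KRT19 was lower by −0.86 ± 0.07, KRT80 by −0.52 ± 0.07 and KRT6A, which was near the median of all entries, by −0.26 ± 0.07. Of 29 tested junction genes of 34, 11 were lower and 1 higher. The median of −0.14 was −0.05 at matched level and −0.04 after quantile normalization, which called 10 of the 11 lower and 3 genes higher. Lower members were DSC3 (−0.52 ± 0.06) and PKP2 (−0.44 ± 0.08), of desmosomes, MARVELD2 (−0.50 ± 0.08), of tricellular junctions, and EPCAM (−0.58 ± 0.09), an epithelial adhesion molecule. CDH1, E-cadherin, was bright in both lines and was not called (0.06 ± 0.10, adjusted p = 0.735), although it was called higher after quantile normalization (0.25, adjusted p = 0.0447). CDH1 was picked after its value was seen.

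Transcription factors of this epithelium showed the same direction in part. Of 10 tested regulators of epithelial identity out of 20, 7 were lower and 1 higher, with 5 and 1 after quantile normalization. The ETS factors EHF (−0.73 ± 0.06) and ELF3 (−0.46 ± 0.08) were lower, as were KLF5 (−0.52 ± 0.07) and OVOL2 (−0.32 ± 0.06), which holds cells in an epithelial state. Of 14 tested genes of Müllerian identity out of 24, 5 were lower and 1 higher, and 5 and 2 after quantile normalization. SOX17, a factor of the Müllerian epithelium, read 8.91, 8.80 and 8.84 in knockout cells, against 10.00, 10.01 and 9.96 in parental cells (−1.14 ± 0.06). WNT7A, a ligand that patterns the female tract, read 8.75, 8.76 and 8.71 in knockout cells, against 10.24, 10.07 and 9.93 in parental cells (−1.34 ± 0.08). PAX8 was lower by −0.34 ± 0.07 and the homeobox gene MSX1 by −0.38 ± 0.07. The Müllerian list as a whole had no steady direction, with a median of −0.04 as deposited and 0.05 after quantile normalization.

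Targets of BMP signalling moved the other way, against the general excess of falls. Of 14 tested targets out of 23, 8 were higher and 1 was lower in knockout cells, under both scalings. The median was 0.27 as deposited, 0.29 level-matched and 0.28 after quantile normalization. Beside ID3 and SMAD6, BAMBI, a pseudoreceptor that dampens the pathway, read 8.18, 8.12 and 8.17 in knockout cells, against 6.87, 6.79 and 6.85 in parental cells (1.33 ± 0.06). ID2 read 7.87, 8.08 and 8.01 in knockout cells, against 7.16, 7.32 and 7.08 in parental cells (0.80 ± 0.08). Among other members, picked after their values were seen, the inhibitor SMAD7 (0.61 ± 0.07) and the ID genes ID1 (0.56 ± 0.07) and ID4 (0.36 ± 0.06) were higher. Thus all 4 ID genes were higher, and MSX1 was the member that was lower. Of 14 tested BMP ligands and receptors out of 22, 3 were higher and 0 lower, and 5 and 0 after quantile normalization. The 3 were the ligand BMP6 (0.24 ± 0.06) and the type I receptors ACVR1 (0.30 ± 0.08) and ACVRL1 (0.21 ± 0.06). These changes were small, and BMP6 and ACVRL1 were near the median of all entries.

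The nodal, activin and TGF-beta branch was mixed. Of 21 tested genes out of 32, 5 were higher and 6 lower, and 7 and 5 after quantile normalization. The median was 0.03 as deposited, 0.06 level-matched and 0.05 after quantile normalization. With LEFTY2, its paralogue LEFTY1 was lower, at 6.83, 6.85 and 6.80 in knockout cells, against 8.25, 7.87 and 7.86 in parental cells (−1.17 ± 0.10). INHBE, an activin subunit, read 11.03, 10.95 and 10.93 in knockout cells, against 10.14, 9.91 and 9.60 in parental cells (1.09 ± 0.11). TGFBI, a secreted matrix protein named for its induction by TGF-beta, was lower by −1.06 ± 0.13. The genes of the ligands TGFB2 (0.42 ± 0.06) and TGFB3 (0.42 ± 0.06) were higher, and these were picked after their values were seen.

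Matrix and contractile genes changed in both directions. Of 17 tested matricellular genes out of 30, 8 were higher and 4 lower under both scalings. The lower ones included TNC, tenascin C, which read 10.78, 10.75 and 10.66 in knockout cells, against 12.60, 12.30 and 12.14 in parental cells (−1.61 ± 0.10). With SPON1 it formed the low end of the list, and SRPX and SPP1 the high end. Of 18 tested collagens out of 28, 3 were higher and 7 lower, and 4 and 6 after quantile normalization. The fibrillar COL5A1 was higher by 0.89 ± 0.06, while COL6A2, partner of COL6A1, was lower by −0.71 ± 0.07 and COL9A3 by −0.74 ± 0.07. Of 20 tested contractile genes out of 25, 6 were higher and 3 lower, and 11 were higher after quantile normalization. TAGLN, an actin-binding protein of smooth muscle, was higher by 0.88 ± 0.06 and ACTG2 by 0.46 ± 0.06, while TPM4 was lower by −0.48 ± 0.06.

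Of 12 tested mesenchymal genes out of 23, 7 were higher and 2 lower under both scalings, with a median of 0.32 as deposited and 0.35 both level-matched and after quantile normalization. TNC, also a member of this list, had its largest change and was lower (−1.61 ± 0.10). CD44, a hyaluronan receptor (0.44 ± 0.08), the integrin chain ITGB3 (0.53 ± 0.09) and the receptor AXL (0.36 ± 0.06) were higher. VIM, vimentin, read 7.32, 7.35 and 7.38 in knockout cells, against 7.83, 7.66 and 7.56 in parental cells, a difference of −0.33 ± 0.07 in the other direction, and it was picked after its value was seen. Of 18 tested integrins out of 24, 4 were higher, ITGA5 among them (0.52 ± 0.09), and 3 lower, with ITGB4 of hemidesmosomes at −0.71 ± 0.09 and ITGB2 at −0.41 ± 0.07. Quantile normalization gave 5 higher and 3 lower integrins.

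Markers of other cell types were looked at beside these shifts. Over the whole table, 40.3% of entries exceeded 6.82 on all 6 arrays. That held for 11 of 12 general epithelial markers and 10 of 13 of endometrial epithelium. It held for 4 of 17 fibroblast, 2 of 12 endothelial, 1 of 15 leukocyte and 3 of 13 neuroendocrine markers. Failing it on every array were the fibroblast genes DCN, LUM and PDGFRA, the endothelial CDH5, and the leukocyte genes PTPRC and CD3E. Of the 4 tested fibroblast markers, COL5A1 and COL1A1 (0.52 ± 0.10) were higher and FBLN1 (−0.43 ± 0.10) lower, and their part in the shift of matrix genes was not tested. Of 3 tested endothelial markers, VWF was lower (−0.22 ± 0.06), and of 6 tested leukocyte markers 0 were called. Of 6 tested neuroendocrine markers, CHGA was higher (0.47 ± 0.07) and ENO2 lower (−0.24 ± 0.08). Of the epithelial markers, 8 of 11 tested were lower, and of the endometrial ones 8 of 10, with 0 higher in either. Over all tested genes 15.5% were lower and 6.70% higher, and 9.17% and 10.8% after quantile normalization. After quantile normalization 6 of the epithelial markers were lower and 1 higher, and 7 of the endometrial ones were lower and 0 higher.

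**Figure D3:**
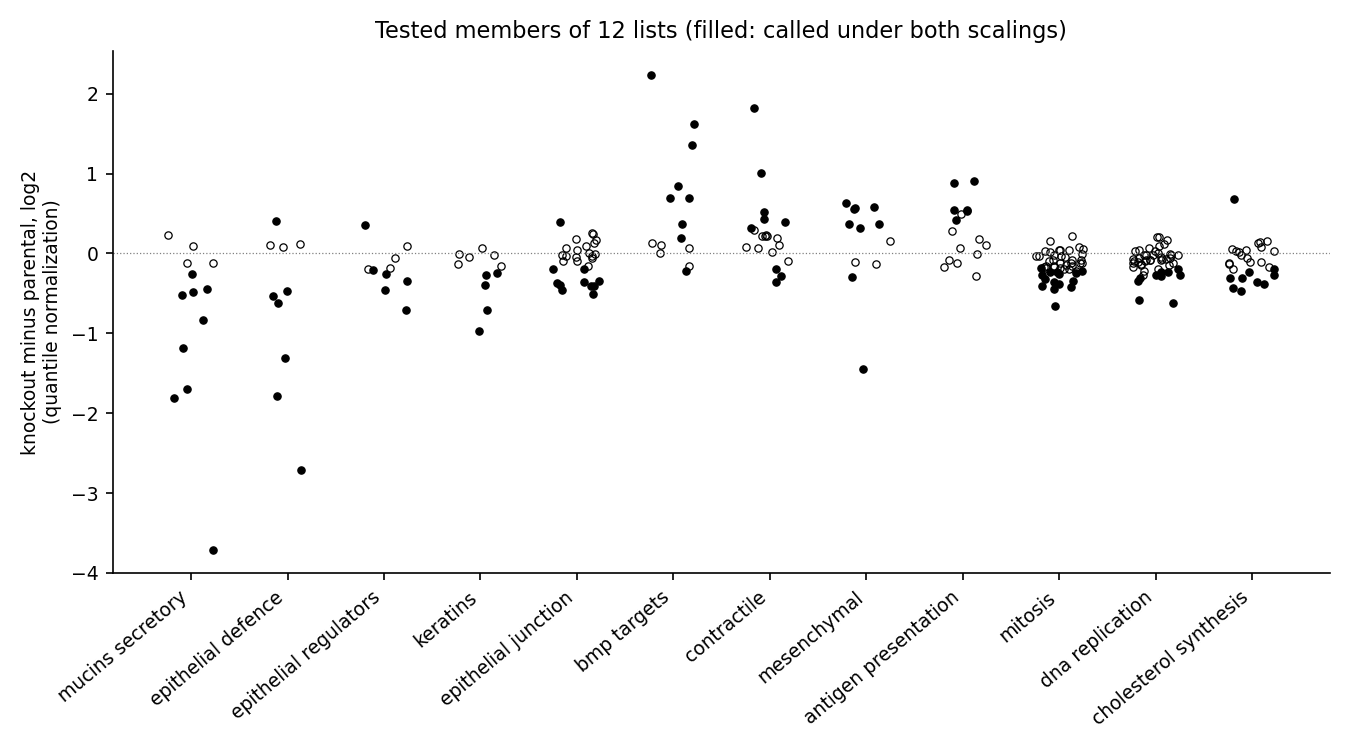
Knockout minus parental difference (log2, after quantile normalization) of every tested member of 12 gene lists. Filled points are called under both scalings, open points are not. Among these 12 lists the lowest point is MUC16 (−3.71), of the secretory list, and the highest is ID3 (2.24), of the BMP targets.

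Many cell-division genes were lower by small amounts, and fewer of them after quantile normalization. Of 49 tested genes of mitosis out of 50, 33 were lower and 0 higher, against 15.5% and 6.70% of all tested genes, and the differences ran from −0.78 to 0.04. The median of −0.28 was −0.15 both at matched level and after quantile normalization, where 15 were lower and 1 higher. SPC24, of the kinetochore, read 8.98, 9.12 and 9.01 in knockout cells, against 9.86, 9.67 and 9.92 in parental cells (−0.78 ± 0.08, adjusted p = 4.40e-05). ESPL1, separase, which cuts the ties between sister chromatids, read 8.89, 8.88 and 9.01 in knockout cells, against 9.58, 9.54 and 9.36 in parental cells (−0.56 ± 0.07). MKI67, the proliferation antigen Ki-67, was lower by −0.51 ± 0.07 and the phosphatase gene CDC25B by −0.49 ± 0.06. Of 48 tested replication genes, 19 were lower and 0 higher, and 10 and 2 after quantile normalization, with a median of −0.20 as deposited and −0.08 at matched level. RFC3, a subunit of the clamp loader, averaged 8.05 ± 0.04 in knockout cells, against 8.76 ± 0.07 in parental cells (SD, n = 3 each), without overlap (−0.71 ± 0.06). RRM2 (−0.69 ± 0.09) and TK1 (−0.41 ± 0.06), which supply nucleotides, and the cyclin gene CCNE1 (−0.44 ± 0.07) were lower as well. None of these genes reached 2-fold.

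Since most division genes had negative differences as deposited, their promoters were read from RefSeq (GRCh38.p14, from 250 bases before to 50 after each start). A pair of motifs known from late cell-cycle promoters were searched on both strands: the cell cycle homology region, CHR (TTTGAA or TTCGAA), and CCAAT, beside 1 form of the E2F site of replication genes (TTTGGCGC or TTTCCCGC). Below are the promoters of ESPL1 (chr12:53268049-53268348, plus strand) and MKI67 (chr10:128126374-128126673, minus strand), with CHR and CCAAT matches in capitals. That of RFC3 (chr13:33817899-33818198, plus strand) has its E2F match in capitals. They were chosen as examples because their promoters hold the motifs, from genes among the 4 of their list with the smallest p.
ESPL1: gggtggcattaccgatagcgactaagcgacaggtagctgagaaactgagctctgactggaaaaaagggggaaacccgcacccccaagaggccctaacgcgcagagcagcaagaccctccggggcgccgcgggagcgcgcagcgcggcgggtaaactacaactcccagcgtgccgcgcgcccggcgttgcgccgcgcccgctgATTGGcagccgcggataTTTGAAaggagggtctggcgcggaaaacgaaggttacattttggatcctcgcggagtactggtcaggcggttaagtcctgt
MKI67: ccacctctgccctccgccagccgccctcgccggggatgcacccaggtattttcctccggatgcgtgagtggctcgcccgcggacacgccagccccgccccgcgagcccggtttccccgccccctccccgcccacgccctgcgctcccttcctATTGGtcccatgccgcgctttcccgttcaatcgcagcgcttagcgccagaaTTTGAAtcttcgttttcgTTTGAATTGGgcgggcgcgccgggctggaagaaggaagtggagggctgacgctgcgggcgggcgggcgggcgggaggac
RFC3: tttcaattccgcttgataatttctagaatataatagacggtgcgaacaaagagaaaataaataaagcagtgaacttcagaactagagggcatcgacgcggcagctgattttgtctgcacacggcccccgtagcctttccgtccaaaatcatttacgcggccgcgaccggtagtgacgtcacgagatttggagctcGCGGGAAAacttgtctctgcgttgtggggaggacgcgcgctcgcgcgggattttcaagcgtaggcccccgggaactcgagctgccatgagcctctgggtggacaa

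In ESPL1 the CCAAT letters stand on the minus strand (ATTGG) 48 bases before the start and the CHR letters 31 bases before it. In MKI67 a CHR match and a CCAAT match overlap, in the run that holds both near 29 bases before the start. The RFC3 match stands on the minus strand 55 bases before the start. Promoters were found for 42 of the tested mitosis genes, and 31 of them held a CHR match (73.8%), against 16.6% of 27305 promoters. CCAAT stood in 31 of the 42 (73.8%), against 35.7% of all, and both motifs in 24 (57.1%), against 6.58%. The 2 motifs overlapped in 2 of the 42 promoters and in 34 of all. The motif did not mark the members that fell: 19 of 28 called promoters held CHR (67.9%), and 12 of 14 uncalled ones did (85.7%). The E2F letters stood in 16 of 40 replication promoters (40%), against 2.31% of all, in 6 of 16 called (37.5%) and 10 of 24 uncalled (41.7%). A match is a run of letters, and whether any factor bound there was not measured.

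Among G1 regulators, a pair of D-type cyclins had the largest rise and the largest fall. CCND2 read 10.37, 10.18 and 10.22 in knockout cells, against 9.33, 9.43 and 9.47 in parental cells (0.85 ± 0.07). CCND1 read 12.37, 12.23 and 12.25 in knockout cells, against 12.93, 13.04 and 13.01 in parental cells (−0.71 ± 0.06). These cyclins, which drive the same kinases, thus differed in opposite directions, under both scalings, and the third, CCND3, was higher by 0.25 ± 0.06 and was picked after its value was seen. The inhibitor CDKN1A (p21) was higher by 0.34 ± 0.06 and the kinase CDK6 by 0.31 ± 0.07. Over the list of 23 tested G1 genes out of 24, 6 were higher and 5 lower, and 6 and 2 after quantile normalization. Of 31 tested crosslink-repair genes out of 33, 5 were lower and 0 higher, a share of falls close to the 15.5% of all tested genes. The 5 were UBE2T (−0.43 ± 0.06), XRCC2 (−0.42 ± 0.07), FANCD2 (−0.32 ± 0.07), FANCI (−0.30 ± 0.08) and FANCG (−0.24 ± 0.08). After quantile normalization 2 of these, UBE2T and XRCC2, were still called lower, and FANCE, picked after its value was seen, was called higher (0.29, adjusted p = 0.00329).

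Genes that the literature links to MTDH did not move one way. Of 19 tested out of 23, 5 were higher and 6 lower, and 5 and 3 after quantile normalization. Beside ALDH3A1, the drug exporter gene ABCB1 was higher (0.67 ± 0.07), and the survival gene BCL2L1 was lower (−0.56 ± 0.07). NF-kB, a pathway MTDH is known to act on in other cells, showed few changes among its subunit and target genes. Of 21 tested out of 30, 0 were higher and 2 lower, against 15.5% of all genes lower. The 2 were the subunit gene NFKB1 (−0.28 ± 0.07) and TNFAIP2 (−0.27 ± 0.07). Quantile normalization left NFKB1 uncalled (adjusted p = 0.140).

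Some enzyme genes of aldehyde and steroid metabolism were called. All 19 aldehyde dehydrogenases were tested, 4 were higher, 0 lower and 15 not called, and 7 were higher and 0 lower after quantile normalization. After ALDH3A1 the changes were small, with ALDH1A3 at 0.35 ± 0.07, ALDH3A2 at 0.28 ± 0.06 and ALDH1A2 at 0.25 ± 0.06. ALDH1A2 was near the median of all entries, and its parental values lay below it. Targets of NRF2 and of the aryl hydrocarbon receptor, a list without ALDH3A1, were split. Of 25 tested out of 33, 4 were higher and 6 lower. The balance turned after quantile normalization, with 5 higher and 3 lower, and the median of −0.08 became 0.04 level-matched and 0.03 after quantile normalization. CYP1B1 was higher (0.49 ± 0.08) and the pentose phosphate enzyme TALDO1 lower (−0.34 ± 0.06). AKR1C3, which reduces steroids and prostaglandins, read 7.56, 7.43 and 7.54 in knockout cells, against 8.86, 8.74 and 8.87 in parental cells (−1.32 ± 0.07). AKR1C2 was lower by −0.65 ± 0.07, but the sequences of these 2 genes are close and the probes may share signal.

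About as many genes of cholesterol synthesis were lower as were not called. Of 27 tested genes out of 29, 13 were lower and 1 higher, against 15.5% and 6.70% of all tested genes. After quantile normalization 9 were lower and 1 higher, against 9.17% and 10.8%. The median was −0.25 as deposited, and −0.11 both at matched level and after quantile normalization. SC4MOL, the sterol methyl oxidase now named MSMO1, was lower by −0.62 ± 0.09, FDPS by −0.40 ± 0.07 and FDFT1 by −0.33 ± 0.06. SQLE, squalene epoxidase, which acts between FDFT1 and SC4MOL in the pathway, was the member that was higher (0.57 ± 0.09). Fatty acid genes were split, 4 of 24 tested out of 25 higher and 5 lower, and 5 and 5 after quantile normalization. Of these, AGPAT2 (−0.96 ± 0.08) and the desaturase SCD5 (−0.96 ± 0.08) were lower, while the elongase ELOVL6 (0.55 ± 0.08) and LPIN1 (0.48 ± 0.06) were higher.

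Ribosomal, complex I and proteasome genes, which have bright signals, had level-matched medians of −0.05, −0.06 and 0.03. Of 77 tested ribosomal protein genes out of 78, 34 were lower and 2 higher, with a median of −0.21 that became −0.04 after quantile normalization, where 13 were lower and 5 higher. RPS3A, RPL13A, RPS3 and RPS18 were lower by −0.40 ± 0.06, −0.43 ± 0.06, −0.40 ± 0.06 and −0.41 ± 0.06, and pseudogenes may share their probes. Of 36 tested subunits of respiratory complex I out of 38, 16 were lower and 0 higher, and 5 and 1 after quantile normalization. NDUFA11 (−0.67 ± 0.08), NDUFA13 (−0.59 ± 0.08), NDUFB11 (−0.54 ± 0.07) and NDUFS4 (−0.40 ± 0.07) stayed called. Of 33 tested proteasome genes out of 34, 5 were lower and 0 higher, a share of falls close to the 15.5% of all tested genes. The 5 were PSME1 (−0.40 ± 0.07), PSMD12 (−0.39 ± 0.10), PSMC3 (−0.34 ± 0.07), PSMA2 (−0.30 ± 0.07) and PSMC6 (−0.21 ± 0.06). After quantile normalization 1 was lower and 3 were higher. Of 31 tested glycolysis and hypoxia genes out of 34, 11 were lower and 4 higher, and 7 and 7 after quantile normalization. GAPDH (−0.44 ± 0.07), ALDOA (−0.41 ± 0.07) and NDRG1 (−0.38 ± 0.06) were lower, and the glucose transporter gene SLC2A3 was higher (0.39 ± 0.07). The parental values of SLC2A3 lay below the median of all entries. Of 31 tested stress-response genes, 8 were lower and 5 higher, with the chaperone HSPA5 (−0.37 ± 0.09) and CHAC1 (−0.39 ± 0.07) lower, and STC2 (0.52 ± 0.10) and PHGDH (0.40 ± 0.07), of serine synthesis, higher. The balance of the stress-response genes turned after quantile normalization, with 2 lower and 8 higher, and their median of 0.000984 became 0.09 level-matched and 0.07 after quantile normalization.

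**Figure D4:**
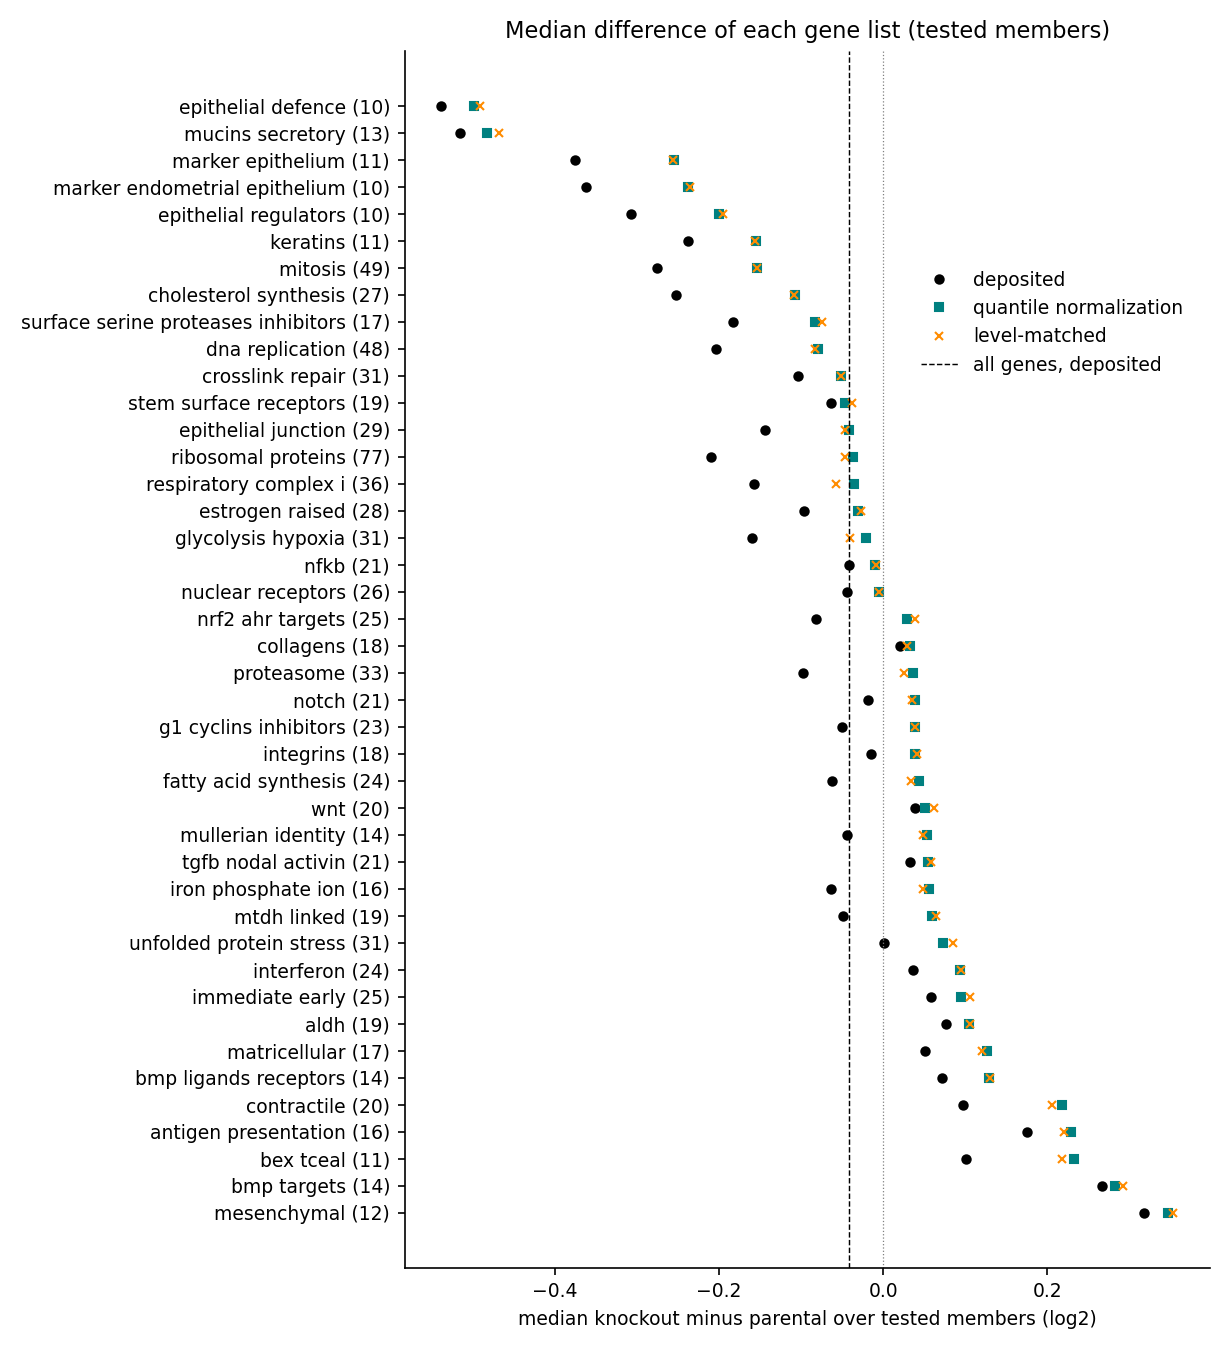
Median knockout minus parental difference (log2) of each gene list with at least 9 tested members (number in parentheses), ordered by the quantile-normalized median. Circles show deposited values, squares quantile normalization and crosses level-matched values, and the dashed line is the deposited median of all genes, −0.04. Abundant groups such as the ribosomal proteins move towards 0 when level is accounted for, while mucins stay between −0.52 and −0.47 and BMP targets between 0.27 and 0.29.

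Among genes of antigen presentation, rises outnumbered falls. Of 16 tested out of 30, 7 were higher and 1 lower, against 6.70% and 15.5% of all tested genes. After quantile normalization 8 were higher and 0 lower, against 10.8% and 9.17%. The median was 0.17 as deposited, 0.22 level-matched and 0.23 after quantile normalization. HLA-E, a class I molecule, read 9.48, 9.29 and 9.25 in knockout cells, against 8.67, 8.52 and 8.41 in parental cells (0.80 ± 0.08). HLA-DMA (0.78 ± 0.09) and HLA-DMB (0.52 ± 0.08), which load class II molecules, were higher, as was HLA-B (0.52 ± 0.07), and class I genes are alike enough that probes may share signal. The lower member was the chaperone CALR (−0.46 ± 0.12), which quantile normalization left uncalled (adjusted p = 0.0674) and was picked after its value was seen. Of 24 tested interferon-response genes out of 35, 6 were higher, among them IFITM1 (0.53 ± 0.06), IFI6 (0.50 ± 0.08) and IFIT2 (0.27 ± 0.06), and 1 was lower, GBP2 (−0.29 ± 0.06), with the same counts after quantile normalization.

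The estrogen receptor and its target genes were measured here without hormone. ESR1 read 9.86, 9.83 and 10.01 in knockout cells, against 10.21, 10.26 and 10.06 in parental cells, with no overlap (−0.28 ± 0.07, adjusted p = 0.0199). With quantile normalization it was no longer called (−0.15, adjusted p = 0.140). The progesterone receptor gene PGR, a classical estrogen target, did not exceed 6.82 on any of the 6 arrays. The lists that follow stand beside 6.70% higher and 15.5% lower of all tested genes, and 10.8% and 9.17% after quantile normalization. Of 28 tested genes known to be raised by estrogen out of 38, 6 were higher and 8 lower in knockout cells, and 6 and 7 after quantile normalization. AGR2, the protease gene PRSS23 (−1.09 ± 0.07) and CCND1 were lower, and FHL2 was higher (0.60 ± 0.06). Of 26 tested nuclear receptors and cofactors out of 44, 4 were higher and 3 lower, and 4 and 2 after quantile normalization, with RXRA (0.67 ± 0.06) and the mineralocorticoid receptor gene NR3C2 (0.28 ± 0.06) higher, and NRIP1 (−0.53 ± 0.06) and NR2F6 (−0.38 ± 0.09) lower. Of 25 tested immediate early genes out of 29, 2 were lower, EGR1 (−0.79 ± 0.08) and SPRY2 (−0.51 ± 0.06), and 2 higher, MYC (0.24 ± 0.07) and JUN (0.21 ± 0.07). Quantile normalization gave 6 higher and 2 lower immediate early genes, with a median of 0.09, against 0.06 as deposited.

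Other signalling lists held single large changes. Their counts compare with 6.70% higher and 15.5% lower of all tested genes, and 10.8% and 9.17% after quantile normalization. Of 21 tested Notch genes out of 26, 5 were higher and 4 lower, and 6 and 3 after quantile normalization. The ligand gene DLL1 read 8.42, 8.58 and 8.53 in knockout cells, against 7.31, 7.21 and 7.21 in parental cells (1.27 ± 0.07). DLL3 (0.34 ± 0.06) and HEY2 (0.48 ± 0.07) were higher and HES2 was lower (−0.98 ± 0.07). Of 20 tested Wnt genes out of 38, 4 were higher and 5 lower, and 5 and 4 after quantile normalization. After WNT7A, the largest were the inhibitor genes NKD2 (−0.77 ± 0.07) and ZNRF3 (−0.42 ± 0.08), and DKK3 (0.50 ± 0.09). Of 17 tested surface serine proteases and inhibitors out of 30, 4 were higher, PLAT among them (0.84 ± 0.10), and 4 lower, under both scalings. Of 19 tested surface receptors linked to stem cells out of 28, 4 were higher and 5 lower, and 4 and 3 after quantile normalization, with ALCAM at −0.60 ± 0.08. Of 16 tested iron, phosphate and ion transport genes out of 27, 2 were higher and 4 lower, and 4 and 4 after quantile normalization. In that list the chloride channel genes CLIC6 (1.43 ± 0.06) and CLIC3 (−1.40 ± 0.08) differed in opposite directions, and the sodium channel gene SCNN1A was lower (−0.65 ± 0.09). Of 11 tested BEX and TCEAL genes out of 14, 5 were higher and 0 lower, and 6 and 0 after quantile normalization. Beside BEX1 and TCEAL2 the 5 were BEX5 (0.70 ± 0.08), BEX4 (0.45 ± 0.08) and BEX2 (0.34 ± 0.07).

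The estradiol arrays, which the fit did not use, gave another reading of the lines. MTDH went against the label on 2 of them: the array labelled knockout estradiol 1 read 10.94, and that labelled parental estradiol 3 read 8.97. SPON1, MUC16 and ALDH3A1 went against the label on the same 2 arrays. They read 12.04, 10.80 and 9.73 on knockout estradiol 1, and 6.83, 7.38 and 11.86 on parental estradiol 3. With all 6 as labelled, 0 genes were called (0%; 681 at an unadjusted p under 0.05). Even so, 953 of the 1166 genes higher without estradiol had a positive difference (81.7%, against 44.7% of all genes), and 2179 of the 2704 lower ones a negative one (80.6%, against 55.3%). Without those 2 arrays, 2132 genes were called (12.2%). The higher genes then had a positive difference in 1097 cases (94.1%, against 55.2% of all), 576 of them called higher and 3 lower. The lower ones had a negative difference in 2108 cases (78.0%, against 44.8%), 740 called lower and 20 higher. With both sets of arrays quantile normalized, these shares were 89.4% and 86.5%. The 12 largest rises and 12 largest falls all kept their sign on these 4 arrays. SPON1 was at −5.28 and ALDH3A1 at 2.38, against −1.78 and 0.87 on all 6 as labelled. The 2 arrays left out were those where such genes went against the label, so the choice itself favoured this agreement. Of all 17415 tested genes, 1022 were called higher and 1110 lower on the 4 arrays. Of 14 tested BMP targets, 7 were higher and 0 lower. Of 49 tested mitosis genes, 6 were lower and 2 higher, with a median of −0.06, against 0.02 over all tested genes. Among 13 tested mucin and secretory genes 10 were lower and 0 higher, and among 29 junction genes 12 and 0. Several other lists kept few calls. Epithelial regulators had 1 lower and 1 higher of 10 tested, mesenchymal genes 2 and 2 of 12, and Müllerian genes 2 and 0 of 14. BMP ligands and receptors had 1 lower and 0 higher of 14.

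**Figure D5:**
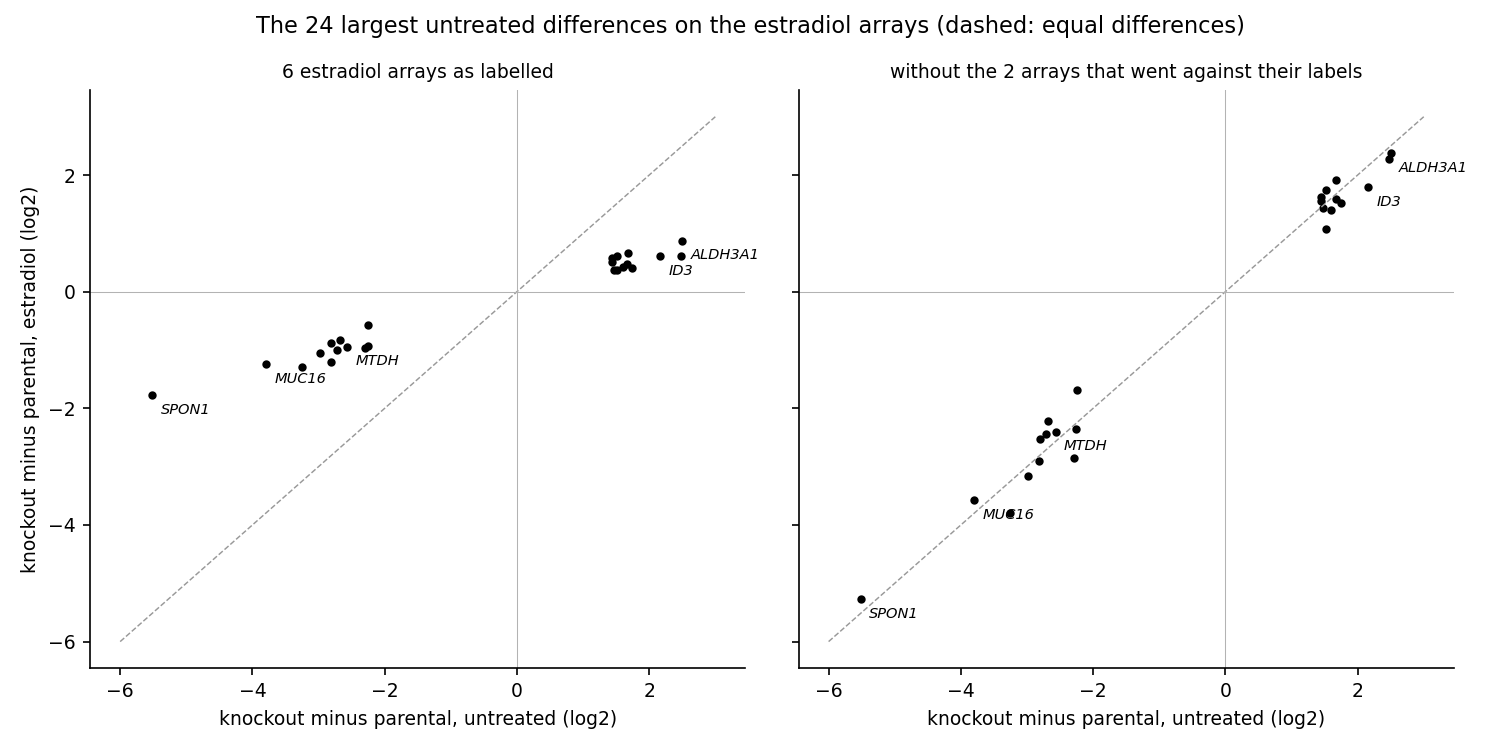
Knockout minus parental difference (log2) of the 12 largest rises and 12 largest falls, without estradiol (horizontal) and with it (vertical), for all 6 estradiol arrays as labelled (left) and without the 2 whose MTDH level went against the label (right). On the right the points lie near the line of equal differences; on the left they keep their sign but are drawn towards 0.

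A few differences between the lines had another size when estradiol was present. The test of the untreated minus the estradiol difference called 1 gene over all 12 arrays (0.00574%) and 135 over the 10 arrays left without those 2 (0.775%), of which 107 had been called without estradiol. The 1 gene of the 12-array test carries the identifier LOC730255, with −0.61 untreated and 0.11 with estradiol (adjusted p = 0.0366). On the 10 arrays, MUC5AC was at −1.86 untreated and −3.21 with estradiol, a difference of 1.34 ± 0.12 (adjusted p = 3.77e-05). It read 7.02 and 6.91 on the 2 knockout estradiol arrays, against 10.22 and 10.12 on the 2 parental ones. CLIC3 (0.81 ± 0.12) and FUT3 (0.64 ± 0.13) likewise had a larger gap with estradiol. SCGB2A1 (−0.70 ± 0.11), KRT17 (−0.45 ± 0.10) and COL5A1 (0.52 ± 0.10) had a larger gap without it.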

How the data were processed

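Biotin-labelled RNA from ECC1 cells was hybridized to Illumina whole-genome expression arrays, per the labels' protocols. The authors deposited 1 table of log2 intensities with 34595 entries and 12 arrays. Background correction, normalization between arrays, the joining of probes and the genome build are not given in the sources used here, and the table holds no detection calls. The unit was judged from the values.

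Columns were matched to samples by title. Of the identifiers, 17757 were current RefSeq symbols, 3303 older symbols, 150 were ambiguous and 13385 were unmatched. Names are printed as in the table. The deposited log2 values of the 6 untreated arrays were fitted alone with limma 3.58.1 (R 4.3.3), 1 mean per line, empirical Bayes defaults, two-sided p-values and Benjamini-Hochberg adjustment over 17415 genes. Quantile normalization and cyclic loess ran over all entries of the 6 arrays. Alternatives are in the closing section, and the fit was tested on simulated data. The number of arrays limits the precision.

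The comparison, its 46 gene lists and the rule for names were chosen with earlier results of these data known, so no list is independent support. Named were MTDH, SPON1, MUC16, ALDH3A1 and ESR1, the 12 largest rises and falls called without overlap, and in each list the 4 members with the smallest p, or all called members where 5 or fewer were called. A few other genes are marked as picked after their values were seen.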

Additional observations from a re-analysis of the deposited data

How the results depend on the processing

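The excess of lower genes depended on the scaling. Quantile normalization gave 1880 higher and 1597 lower genes in knockout cells, cyclic loess 1809 and 1560, and median centring 1081 and 3232. In the brightest bin the median difference of −0.163 became 0.00125 after quantile normalization and −0.000416 after cyclic loess. All 12 arrays in 1 fit, which take in the 2 estradiol arrays that went against their labels, gave 2215 calls (468 higher, 1747 lower). A minimum change of 1.5-fold gave 118 (37 and 81), and a threshold of 0.01 gave 2012 (636 and 1376). Calls without 1 array ranged from 2223 to 4785 (765 to 1126 higher, 1415 to 3672 lower). They were fewest without knockout replicate 2 (2223), parental replicate 2 (2469) and knockout replicate 3 (2501), and after quantile normalization they ranged from 2323 to 3569. Left out 1 at a time, the arrays gave a brightest-bin median of −0.190 to −0.142. The other alternatives, no filter, the 67th percentile, 10 arrays, a trended and robust prior and array weights, gave 3610 to 4869 calls.

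The residuals of same-numbered arrays correlated at −0.0424, −0.00367 and 0.0569, so the numbers did not pair the arrays. The fit with the replicate block called 3784 genes, 1096 higher and 2688 lower.

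Of 177 genes named with a test, 176 kept their direction under every alternative, and 41 kept both direction and call. The exception was CDH1, which was uncalled and read −0.06 without parental replicate 3, within a range of −0.0579 to 0.151 over the 6 arrays left out in turn. Quantile normalization ended the call of 13 genes, cyclic loess of 12, all 12 arrays of 44, the 1.5-fold minimum of 128, the threshold of 0.01 of 21 and median centring of 0. Leaving out 1 array ended 1 to 18 calls. Without 1 array, the mucin list kept 9 lower genes and the BMP targets 7 higher, while the mitosis list had 23 to 33 lower. On the estradiol arrays, the share of untreated calls with the same sign was 80.9% as labelled, 82.8% without the 2 arrays and 88.1% without them after quantile normalization. The labels give no depth, and values near the median of all entries limit how far a fall can be read.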

Other observations

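The calcium-activated chloride channel ANO1, which moves fluid across secretory epithelia, was present under its current symbol and under its older name TMEM16A. It was picked after its values were seen. The entry ANO1 read 7.22, 7.17 and 7.12 in knockout cells, against 8.87, 8.89 and 8.58 in parental cells (−1.61 ± 0.08, limma adjusted p = 2.83e-07). The entry TMEM16A read 7.34, 7.40 and 7.31 in knockout cells, against 9.46, 9.30 and 9.08 in parental cells (−1.93 ± 0.09, limma adjusted p = 1.09e-07). Both entries were lower with no overlap. More than 1 entry was found for 479 genes, so counts of entries are somewhat above counts of genes.

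No chromosome stood apart as a whole. The level-matched median difference of the tested genes of a chromosome lay between −0.0122, for chromosome 22 (308 genes), and 0.0311, for chromosome 10 (492 genes). For chromosome 8, which carries MTDH, it was −0.000261 over 432 genes.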
